A study of Mus musculus with 10 samples.

Results

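The DNA replication and S phase module is a list of 48 genes that act at the replication fork, prepare origins for it or supply it with nucleotides, and its members were taken from the gene tables by symbol alone. All 48 were found among the 18022 genes listed over the 10 plates. The samples are small intestinal crypt cells of C57Bl/6 mice, processed with CEL-seq2, a method that tags the 3′ end of each transcript with a well barcode and a molecular barcode. The 7 sorted plates hold single cells placed in wells by a cell sorter, 5 under the code GK5a and 2 under GK5b, whose meaning the labels do not state. The titles of the 2 GK5b plates end in different letters, G and L, and those of the GK5a plates in running numbers. Whether G and L are replicates is not stated, and they are grouped here by the code alone. An SD over the 2 GK5b plates thus includes any difference between G and L. The other 3 plates hold clumps of 2 or 3 cells picked by mouth pipette after a mild dissociation. All 3 groups share the strain and the tissue. The labels name no treatment, no transgene, no age and no sex, and they do not tie plates to animals, so the p-values given here measure the spread between plates, which may be technical. Wells with at least 1000 endogenous transcripts were used, 1615 sorted and 501 picked, and each plate contributed between 821829 and 4832581 transcripts.

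Replication is prepared in G1 phase, when the origin recognition complex with Cdc6 and Cdt1 loads the ring-shaped Mcm2 to Mcm7 helicase onto origins. At the entry to S phase cyclin E kinase activity and Mcm10, Cdc45 and the GINS complex turn these rings into moving helicases, and the polymerases then copy the strands while held by the Pcna clamp, which the Rfc complex loads. In the crypt, Lgr5-positive stem cells at the base and the transit-amplifying cells above them divide, while mature goblet, Paneth, enteroendocrine, tuft and absorptive cells have left the cycle. Transcription of many replication genes is driven by E2F factors at the passage from G1 to S phase, and genes of G2 and mitosis are switched on later through CHR and CCAAT elements.

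The promoters of the members were compared because the rule did not use sequence. RefSeq promoters of 300 bases on GRCm38.p6, from 250 bases before the start site to 50 after it, were matched for 41 of the 48 members by symbol, and these 41 had 47 promoters. The E2F words TTTCCCGC, TTTCGCGC, TTTGCCGC and TTTGGCGC, searched on both strands, occurred in 15 of the 47 member promoters, or 31.9%, against 2.26% of all 32851 promoters. On related lists the shares were near that of the members, at 36.4% of promoters of G1/S control genes and 27.0% of promoters of further replication and S phase genes. The E2F words occurred in 1 of 24 promoters (4.17%) of a list of G2 and mitosis genes. The CHR words TTTGAA and TTCGAA showed the other order, with 12.8% of member promoters, 83.3% of the G2 and mitosis promoters and 19.2% of all promoters. CCAAT was in 55.3% of member promoters, 91.7% of the G2 and mitosis promoters and 37.4% of all. GGGCGG was in 76.6% of member promoters, 83.3% of the G2 and mitosis promoters and 35.7% of all. A match is a string of letters and not a measured binding site. The stretches below come from 5 members that recur in the results, with the E2F words in capitals, overlapping words merged and each stretch given 5′ to 3′ on the gene's strand. The word of Cdc6 (chr11:98907968-98908065, + strand) begins 138 bases before the start site of its RefSeq promoter. That of Orc1 (chr4:108579382-108579453, + strand) begins 27 bases before the start site of its own. The annotated genes start further upstream, at 98907801 for Cdc6 and 108579423 for Orc1, so both words lie within them. In Uhrf1 (chr17:56304083-56304180, + strand) the word begins 185 bases before the start site of the downstream promoter. The other Uhrf1 promoter (chr17:56303087-56303386), which holds the annotated start of the gene, has no E2F word. Mcm5 (chr8:75109311-75109412, + strand) has 2 overlapping words, and Mcm6 (chr1:128359706-128359860, - strand) has 3, the first 110 and the last 47 bases before the start site.
Cdc6: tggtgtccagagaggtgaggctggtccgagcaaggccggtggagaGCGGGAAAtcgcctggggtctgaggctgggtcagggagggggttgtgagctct
Orc1: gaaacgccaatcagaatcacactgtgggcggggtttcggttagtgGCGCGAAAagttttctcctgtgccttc
Uhrf1: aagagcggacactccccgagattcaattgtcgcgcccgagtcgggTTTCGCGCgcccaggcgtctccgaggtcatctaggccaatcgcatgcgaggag
Mcm5: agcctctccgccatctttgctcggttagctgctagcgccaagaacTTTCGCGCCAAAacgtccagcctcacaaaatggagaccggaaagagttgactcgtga
Mcm6: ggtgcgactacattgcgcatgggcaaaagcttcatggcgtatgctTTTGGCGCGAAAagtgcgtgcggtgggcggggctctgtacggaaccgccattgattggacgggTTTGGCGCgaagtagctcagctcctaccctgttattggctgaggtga

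The module gave 69869 transcripts, and its levels were unequal. Pcna, the sliding clamp, made up 13.8% of them. Mcm6 followed with 5.63%, Tk1, which salvages thymidine, with 4.45%, Mcm7 with 3.96% and Slbp, which binds the stem-loop of histone mRNA, with 3.81%. Rrm1, the large subunit of ribonucleotide reductase, gave 3.61%, Dut, which clears dUTP, 3.59%, Lig1, which joins Okazaki fragments, 3.08% and Mcm5 2.98%. At the other end Orc1 gave 132 transcripts over all plates, Cdc6 311 and Ccne1 381. Ccne2, the second E-type cyclin, gave 22 transcripts and was not listed in the tables of GK5a plate 4 and picked plate 3. The 3′ tag counts 1 transcript as 1 barcode, so these levels are not divided by gene length.

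Summed over wells, the module took about the same share of each plate's transcripts. The GK5a plates gave 0.301, 0.310, 0.357, 0.339 and 0.338% (mean 0.329% ± 0.0228, SD, n = 5), the GK5b plates 0.299 and 0.318% and the picked plates 0.281, 0.341 and 0.279%. The 3 groups of plates overlapped in this share. Single wells were far less even. The median sorted well had 0.162% ± 0.0271 (SD over 7 plates), the well at the 95th percentile had 0.974% ± 0.0680, and the highest sorted well had 1.495%. Thinned to 2000 transcripts each, with shallower wells left out, sorted wells held 6.09 ± 0.545 module transcripts on average, and the variance between wells was 6.59 ± 0.539 times the mean. Without thinning 4.03% of sorted wells had no module transcript, and after thinning 9.30%.

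**Figure D1:**
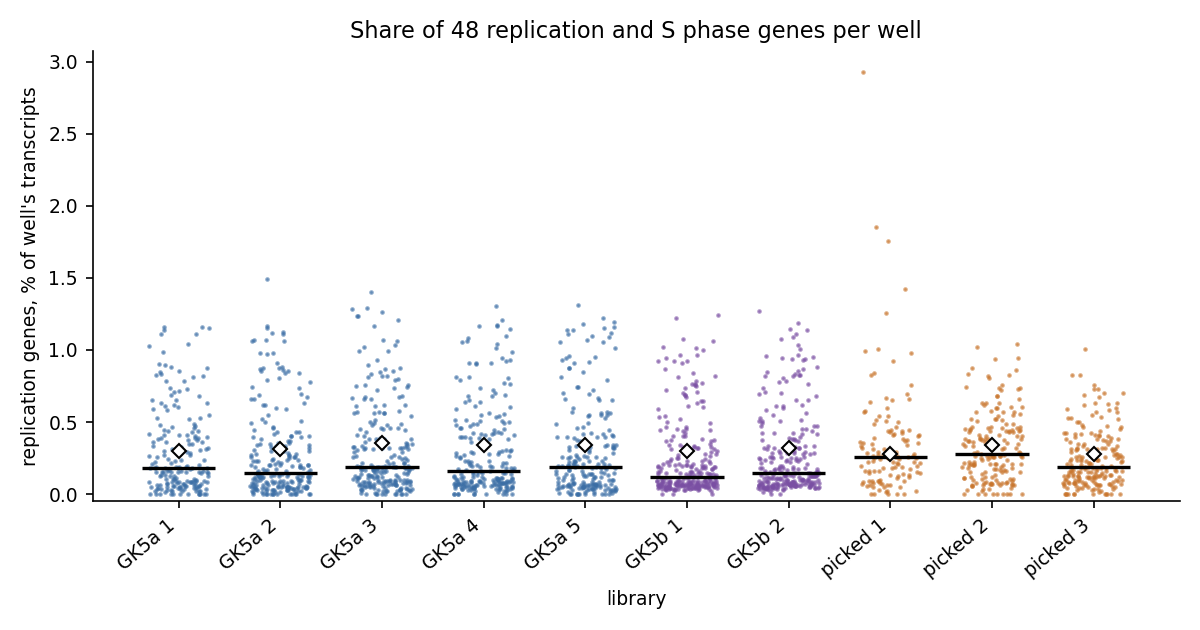
Share of each well's endogenous transcripts that fell on the 48 module genes, in percent, for the 10 plates; points are wells, black lines the plate medians and diamonds the share summed over the plate. The summed shares lie between 0.279 and 0.357%, while single wells run from 0 to over 1%.

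Wells of picked clumps were less spread out. Their median well had 0.243% ± 0.0467 (SD, n = 3), against 0.174% ± 0.0182 in GK5a and 0.131% ± 0.0211 in GK5b, and their 95th percentile was 0.811% ± 0.176. At 2000 transcripts per well the variance over the mean was 3.90 ± 0.814 in picked plates and between 6.01 and 7.46 in the 7 sorted plates, with no overlap. A picked well holds RNA of more than 1 cell, and the values of wells and of cells cannot be told apart there. The median depth per well also differed, at 6061 ± 1716 transcripts in GK5a, 15186 ± 1756 in GK5b and 4506 ± 2394 in picked plates.

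Sorted wells were split into classes by marker genes that are not members. Secretory wells (604) had at least 2% goblet, 5% Paneth, 1% enteroendocrine or 0.5% tuft marker transcripts and less than 1% absorptive markers. Absorptive wells (127) had at least 1% absorptive markers and reached no secretory threshold. Of the rest, 326 wells with at least 1 Lgr5 transcript were called Lgr5-positive and 556 without any were called unmarked. Another 2 wells met both marker rules and were left out. The classes are ranges of a marker share, and 76 sorted wells lay between the goblet threshold and its double.

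The module share was highest in Lgr5-positive and unmarked wells, lower in secretory wells and lowest in absorptive wells. It was 0.458% ± 0.0441 (SD, n = 7 plates; range 0.411 to 0.541) in Lgr5-positive wells, 0.411% ± 0.0210 in unmarked wells, 0.159% ± 0.0465 in secretory wells and 0.0518% ± 0.00912 in absorptive wells. Lgr5-positive wells were above secretory wells in 7 of 7 plates, by 2.18 to 4.36 times, and above absorptive wells in 7 of 7, by 7.38 to 11.04 times. Secretory wells were above absorptive wells in 7 of 7 plates, by 2.13 to 5.06 times. The secretory level depended on the thresholds: with marker thresholds doubled it was 0.114%, and the secretory minus absorptive difference was 0.0701 points in place of 0.107. Lgr5-positive and unmarked wells were neighbours in this order that did not separate: the ratio ran from 0.922 to 1.35, and GK5a plate 5 had the lower value in Lgr5-positive wells. No test is given for these shares, since the members were chosen with results of these data known. After thinning, absorptive wells still held 1.28 ± 0.469 module transcripts of 2000, and 28.6% of them had none, against 1.57% of Lgr5-positive wells. The mean of the plates' median depth was 11549 transcripts per well in Lgr5-positive, 11650 in absorptive, 11329 in unmarked and 6708 in secretory wells.

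**Figure D2:**
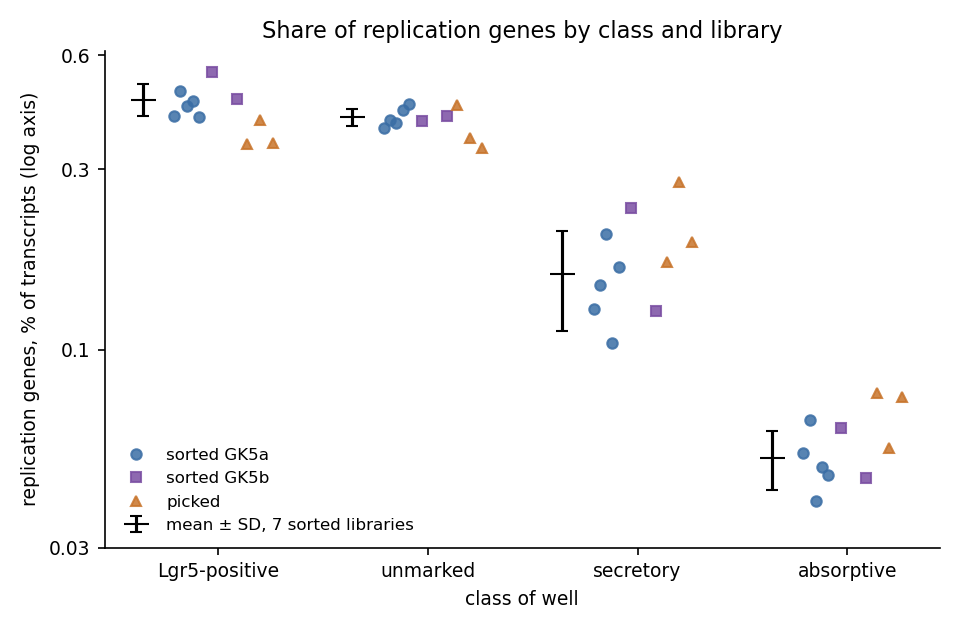
Module share of transcripts in percent (log axis) for each well class and plate, with GK5a as circles, GK5b as squares and picked plates as triangles; the bar is the mean and SD of the 7 sorted plates. Lgr5-positive and unmarked wells overlap near 0.4%, secretory wells lie between 0.104 and 0.236% and absorptive wells between 0.0400 and 0.0653% in the sorted plates.

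In the gene by gene test between Lgr5-positive and secretory wells (limma on log2(CPM + 1), plate as block, Benjamini-Hochberg adjustment over 8726 genes), 35 of the 46 members tested were higher in Lgr5-positive wells, where 20.1% of all genes were, and 0 were lower, where 16.8% of all genes were. Orc1 and Ccne2 were too low to test. A gene could enter through any 3 of the 28 sums of a plate and class, and so without passing the filter in secretory wells. For members low there, such as Gins1, the direction was partly set by the filter. The counts against secretory wells carry this limit here and below. The median log2 difference was 1.59 over the members and 0.13 over all genes. For 24 members the 7 Lgr5-positive values all lay above the 7 secretory values. The share of all genes that separate in this way was not counted, so the 24 are a description.

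By role, all 9 origin licensing genes tested were higher. Cdt1, the licensing factor that is destroyed in S phase, had a lowest, median and highest plate value of 111, 123 and 173 CPM in Lgr5-positive wells and of 19.5, 29.6 and 42.9 CPM in secretory wells. The log2 difference was 2.15 ± 0.43 (SE; limma adjusted p 0.000253), and the 2 sets of plates did not overlap. The annotation places the 3′ end of Cdt1 in a second gene model on the same strand, Gm20388, and reads of both models cannot be told apart. Of the helicase rings Mcm3 (2.16), Mcm7 (1.96) and Mcm5 (1.95) differed most. All 4 helicase activation genes were higher. The largest difference was that of Gins1 (2.58 ± 0.60), a GINS subunit. Gins1 had 19.6, 28.0 and 33.6 CPM in Lgr5-positive and 0, 5.17 and 16.5 CPM in secretory wells. It entered the test through the other classes, so its difference is a description.

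All 4 genes of chromatin and DNA methylation maintenance were higher as well. Uhrf1, which reads hemimethylated DNA behind the fork, had 46.7, 63.0 and 81.5 CPM in Lgr5-positive wells and 3.37, 17.7 and 26.2 CPM in secretory wells, without overlap. Its log2 difference was 2.19 ± 0.47 (adjusted p 0.000602). Chaf1b, a subunit of the histone chaperone CAF-1, differed by 2.37 and the remodeller Hells by 2.16. Pold1, the catalytic subunit of polymerase delta, differed by 2.18, and Rpa2, which coats single-stranded DNA, by 1.95 (adjusted p 0.0227).

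The 11 members that did not pass were Lig1 and Fen1, both lagging strand genes, Rrm2, Tyms and Dut of the nucleotide supply, Pold2 and Pold3 of polymerase delta, the clamp loader genes Rfc1 and Rfc2, the cyclin Ccne1 and Tcf19. Among these Rfc1, the large subunit of the clamp loader, had the opposite sign (-0.78 ± 0.41, adjusted p 0.144). Its plate values were 53.0, 73.0 and 91.7 CPM in Lgr5-positive wells and 75.8, 141 and 158 CPM in secretory wells, so the ranges overlapped. Rrm2, the subunit that limits ribonucleotide reductase activity, ranged from 11.7 to 126.03 CPM over the secretory wells of the 7 plates and from 35.4 to 89.5 CPM over the Lgr5-positive wells.

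**Figure D3:**
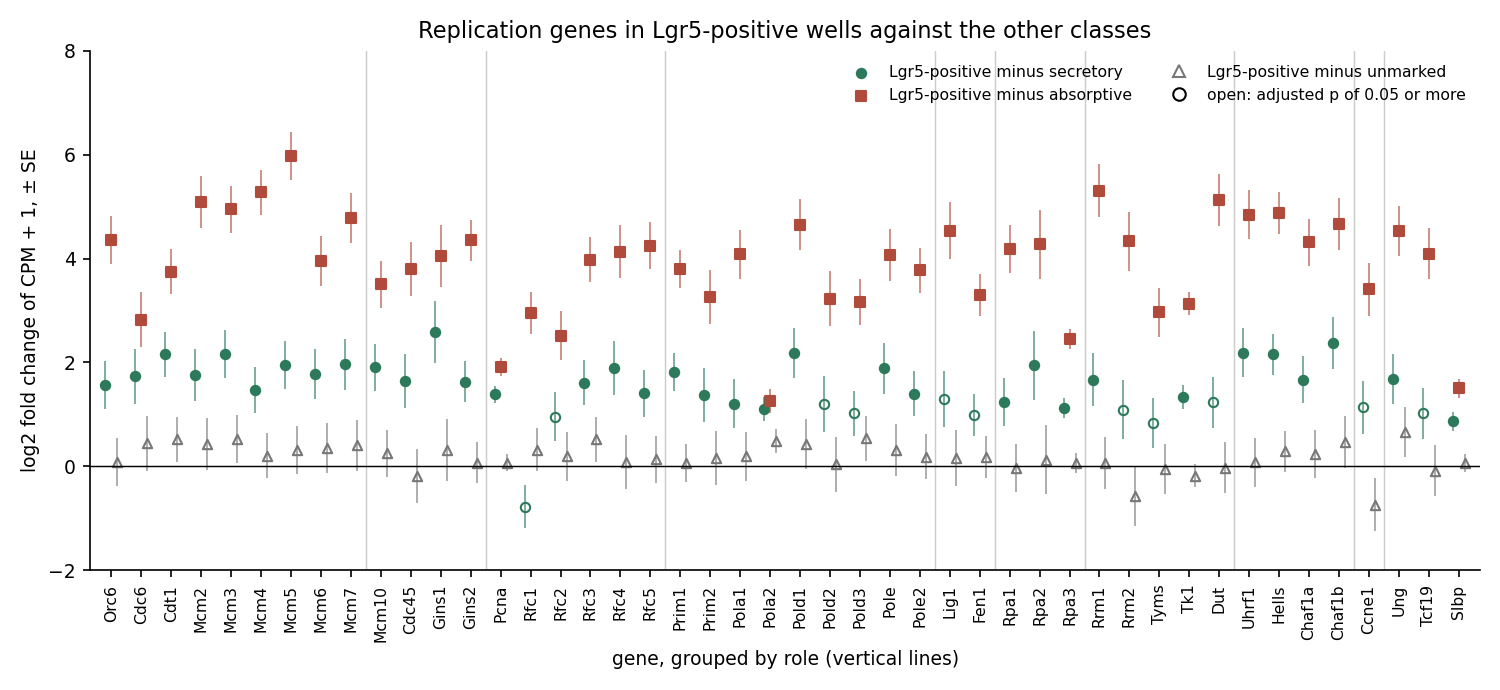
Log2 difference of each member tested (limma, ± SE), ordered by role, for Lgr5-positive minus secretory wells (green circles), minus absorptive wells (red squares) and minus unmarked wells (grey triangles); open symbols have an adjusted p of 0.05 or more. The red squares lie at 1.26 to 5.97, the green circles at -0.78 to 2.58 and the grey triangles around 0.

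Against absorptive wells every one of the 46 tested members was higher in Lgr5-positive wells, where 41.4% of all genes were, and 0 were lower, where 25.4% of all genes were. A gene entered the test through any 3 of the 28 sums of a plate and class. It could thus enter without transcripts in absorptive wells. Absorptive wells of the sorted plates held from 1 (Chaf1a) to 228 (Pcna) transcripts of a tested member. For members near 0 there the direction was largely set by the filter. The counts against absorptive wells, here and below, are therefore a description. The median log2 difference was 4.07 over members and 0.36 over all genes. Mcm5 differed most (5.97 ± 0.46, adjusted p 3.8e-11), with 106, 119.7 and 147 CPM in Lgr5-positive wells and 0, 0 and 15.8 CPM in absorptive wells, followed by Rrm1 (5.31), Mcm4 (5.27), Dut (5.13), Mcm2 (5.08), Mcm3 (4.94), Hells (4.88), Uhrf1 (4.84), Mcm7 (4.78) and Chaf1b (4.66). With several absorptive values at 0, the sizes lean on the pseudocount, and with a pseudocount of 5 the members' median was 2.78. The smallest differences were those of Pola2, the accessory subunit of polymerase alpha (1.26), Slbp (1.501) and Pcna (1.91).

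Pcna made up a larger part of the little module RNA in absorptive wells. It had 477, 567 and 795 CPM in Lgr5-positive wells, 169, 216 and 338 CPM in secretory wells and 87.1, 159.6 and 218 CPM in absorptive wells. Its share of module transcripts was 13.6% in Lgr5-positive and 30.1% in absorptive wells. Slbp went from 3.56 to 9.51% and Pola2 from 1.74 to 5.68%, while Mcm5 went from 3.03 to 0.793%.

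Between secretory and absorptive wells 44 of 46 members were higher in secretory wells, where 40.4% of all genes were, and 0 were lower, where 22.7% were. The median was 2.35 over members and 0.37 over all genes. Mcm5 (4.03), Dut (3.90), Mcm4 (3.80), Rfc1 (3.73), Rrm1 (3.64), Mcm2 (3.32), Lig1 (3.25), Rrm2 (3.24), Tcf19 (3.07) and Rpa1 (2.95) differed most. Cdc6 (1.08, adjusted p 0.0765) and Pola2 (0.15, adjusted p 0.593) did not pass. In Pola2 the plate values were 19.5, 34.7 and 55.1 CPM in secretory and 20.01, 27.5 and 51.4 CPM in absorptive wells, which is nearly the same range.

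Between Lgr5-positive and unmarked wells no member passed the test. In limma 0 of 46 were higher, where 1.86% of all genes were, and 0 lower, where 4.58% were. At an unadjusted p below 0.05 1 member was higher and 0 lower, a count not made over all genes. The count of called members was 0 in both directions in each of the 19 alternatives run, precision weights included. The median log2 difference was 0.18 over members and -0.01 over all genes. The extremes were Ccne1, at 4.25, 17.8 and 24.9 CPM in Lgr5-positive and 16.2, 28.5 and 38.3 CPM in unmarked wells (-0.74), Ung, the uracil glycosylase (0.66), and Rrm2 (-0.58).

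Other cycle genes were counted between the same wells. From a list of 42 further replication and S phase genes 22 of 39 tested were higher in Lgr5-positive than in secretory wells and 0 lower, led by Timeless (2.67) and Wdhd1 (2.23), both components of the fork. Against absorptive wells 35 of 39 were higher, among them Atad2 (5.46) and the maintenance methyltransferase Dnmt1 (5.31). Genes of G1/S control went both ways against secretory wells, with 5 of 19 higher, such as E2f1 (2.46), and 4 lower, such as the kinase inhibitors Cdkn1c (-3.74) and Cdkn1a (-3.66). Against absorptive wells 12 were higher and 3 lower, Ccna2 at 5.77 and Cdkn1a at -4.55. Of the G2 and mitosis genes 17 of 26 were higher than in secretory wells, with Bub1 at 1.42 and Plk1 at 1.39, and 26 of 26 were higher than in absorptive wells, with Cenpe at 5.84. Between Lgr5-positive and unmarked wells 2 G1/S control genes were lower, Cdkn1a (-1.71) and E2f2 (-1.16).

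Within the secretory class the module share fell with the goblet marker level. Goblet wells had a module share of 0.168% ± 0.0472 (SD, n = 7) and Paneth wells 0.0718% ± 0.0159. GK5a plate 3 and GK5b plate 1 had 1 Paneth well each. Over the sorted plates enteroendocrine wells ran from 0.0363 to 0.322% and tuft wells from 0.0887 to 0.311%. The thresholds differ, at 2% goblet and 5% Paneth markers, so type and marker level cannot be told apart. Sorted goblet wells with 2 to 5% marker transcripts had 0.353% ± 0.0837 (116 wells). Those with 5 to 10% had 0.122% ± 0.0569 (154 wells), those with 10 to 20% had 0.0711% ± 0.0215 (173 wells) and those with 20% or more had 0.0441% ± 0.0113 (43 wells of 5 plates). With the marker transcripts taken out of the total the steps were 0.366, 0.132, 0.0828 and 0.0597%.

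The members did not share these steps equally. From the lowest to the highest of 3 goblet marker ranges (2 to 5%, 5 to 10%, 10% or more) Tk1 went from 187 to 46.1 and 15.4 CPM, Rrm2 from 109.8 ± 65.3 to 31.98 ± 47.7 and 5.74 ± 7.53 CPM (SD, n = 7) and Pcna from 426 to 143 and 88.1 CPM. Slbp went from 169 to 66.5 and 38.4 CPM. Rfc1 had 144 ± 63.97, 117 ± 56.1 and 109.5 ± 67.6 CPM, with overlapping plates, and made up 7.12% of module transcripts in secretory wells against 1.66% in Lgr5-positive wells. Pola2 went from 44.3 to 31.8 and 27.1 CPM.

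Among Lgr5-positive and unmarked wells the members were high in the same wells. Sorted wells of these 2 classes with at least 2000 transcripts were ordered within each plate by the thinned count of the module, leaving out the gene being described, and the 25% of wells with the lowest count and the 25% with the highest were compared (200 wells each, the low set and the high set). Of 46 members with at least 50 transcripts in these wells, 45 were at least 2-fold higher in the high set, where 5.74% of 8962 other genes were, and the median ratio was 6.04.  The comparison is a description, since the wells were ordered by the module itself.

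Cdc6, the loader of the Mcm rings, had the largest ratio (77.8), with 2 transcripts in the low set and 146 in the high set. Tcf19 (22.0), Ccne1 (19.1), Rrm2 (15.9), Ung (13.9), Uhrf1 (12.7) and Mcm3 (11.04) followed. Tcf19 and Ccne1 had 17 and 9 transcripts in the low set, so the order of the top genes rests on few transcripts. Pcna had 183 CPM in the low set and 1295 CPM in the high set (7.09). Pola2 (2.72), Rfc5 (2.504), Pold2 (2.46) and Rpa3 (1.63) were the least tied. Orc1, with 1 and 48 transcripts, was under the minimum by 1, and Ccne2 had 1 and 10. The 15 members with an E2F word in a promoter had a median ratio of 8.57 (3.21 to 77.8), and the 26 with a promoter but no such word 5.44 (1.63 to 22.0). The minimum was not applied here, and the 15 include Orc1 (61.6).

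S phase genes and mitosis genes differed in how far they followed the module. Of the further replication genes 32 of 41 were at least 2-fold higher in the high set (median 3.28), with Clspn at 15.9, Rad51ap1 at 15.04, Dscc1 at 12.8 and Atad2 at 12.7. Of the G1/S control genes 7 of 19 were, with E2f1 at 19.2, E2f7 at 13.8 and E2f8 at 10.3, while Cdkn1a was at 0.35. Of the G2 and mitosis genes 4 of 26 were (median 1.17), namely Aurkb (3.49), Kif11 (2.33), Bub1 (2.11) and Cdk1 (2.09). Of these Aurkb, Kif11 and Cdk1 were higher in the high set in each of the 7 plates. Cenpa (0.44), Cdc20 (0.46) and Ccnb2 (0.50) were lower in the high set in each of the 7 plates. Olfm4, a crypt base gene, had a ratio of 2.78 and Lgr5 of 0.89.

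**Figure D4:**
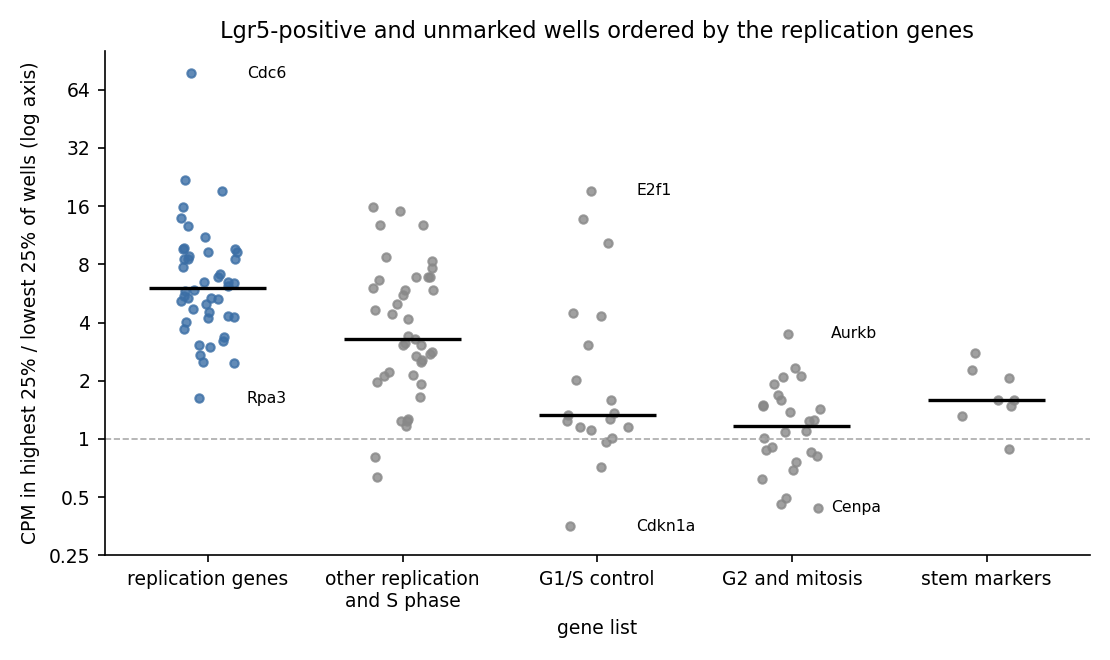
Ratio of the level in the 25% of sorted Lgr5-positive and unmarked wells with the highest module count to that in the 25% with the lowest (log axis), for each member and for the other gene lists, with the median of each list as a line. Members have a median of 6.04, further replication genes 3.28, G1/S control genes 1.32, G2 and mitosis genes 1.17 and stem markers 1.59.

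The members were then compared between picked and sorted plates. In limma (TMM-scaled log2(CPM + 1), 10427 genes) 10 of 47 tested members were higher in picked plates, where 15.7% of all genes were, and 1 was lower, where 18.5% were. The higher count is near the background share and the lower count under it. The median log2 difference was 0.25 over members and -0.08 over all genes. This contrast depended on the scaling: with library totals in place of TMM factors, which shifts the median of all genes to -0.38, 3 members were higher, where 8.49% of all genes were, and 7 lower, where 35% were. The 7 lower members are a smaller share of the members than the lower genes are of all genes.

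Pold1, Cdc6 and Pola2 were called higher in all 22 alternatives run. Pold1 had 17.2, 37.1, 34.2, 35.4 and 36.2 CPM in GK5a, 30.2 and 39.4 CPM in GK5b and 76.2, 119 and 78.3 CPM in picked plates. The picked plates all lay above the sorted plates (1.42 ± 0.25, adjusted p 0.000834). Pola2 had 48.9, 53.0, 60.0, 63.6 and 56.9 CPM in GK5a, 41.8 and 43.2 CPM in GK5b and 90.2, 109.7 and 96.2 CPM in picked plates, again without overlap (0.99 ± 0.14, adjusted p 0.000172). Cdc6 had 10.9, 14.3, 14.8, 9.38 and 14.0 CPM in GK5a, 11.01 and 11.3 CPM in GK5b and 27.9, 27.1 and 20.7 CPM in picked plates (1.03 ± 0.22, adjusted p 0.0034). Cdc6 loads the helicase, Pola2 belongs to the enzyme that makes the primers and Pold1 extends them on the lagging strand.

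The other 7 higher members were not called under every scaling. Mcm5 had 53.4, 79.5, 91.8, 88.1 and 88.9 CPM in GK5a, 77.7 and 92.0 CPM in GK5b and 198, 134 and 112 CPM in picked plates (0.81, adjusted p 0.00882). Rfc4 had 18.1, 17.1, 24.1, 19.3 and 27.3 CPM in GK5a, 35.5 and 24.7 CPM in GK5b and 37.6, 50.1 and 38.7 CPM in picked plates (0.73, adjusted p 0.0156). In both genes the picked plates were the 3 highest of the 10. Mcm7 (0.70), Rfc2 (0.66), Pole (0.55), Pold2 (0.52) and Rpa2 (0.47) passed by smaller sizes. The 3′ ends of Rfc2, Rfc4 and Mcm7 overlap a gene on the other strand (Lat2, Eif4a2 and Cops6), and the strand setting of the counting is not given in the sources used here. Orc6, a subunit of the origin recognition complex, was lower, at 36.2, 26.1, 38.0, 37.5 and 33.5 CPM in GK5a, 27.5 and 24.7 CPM in GK5b and 10.7, 25.7 and 21.7 CPM in picked plates (-0.68, adjusted p 0.0475), where the ranges overlapped.

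**Figure D5:**
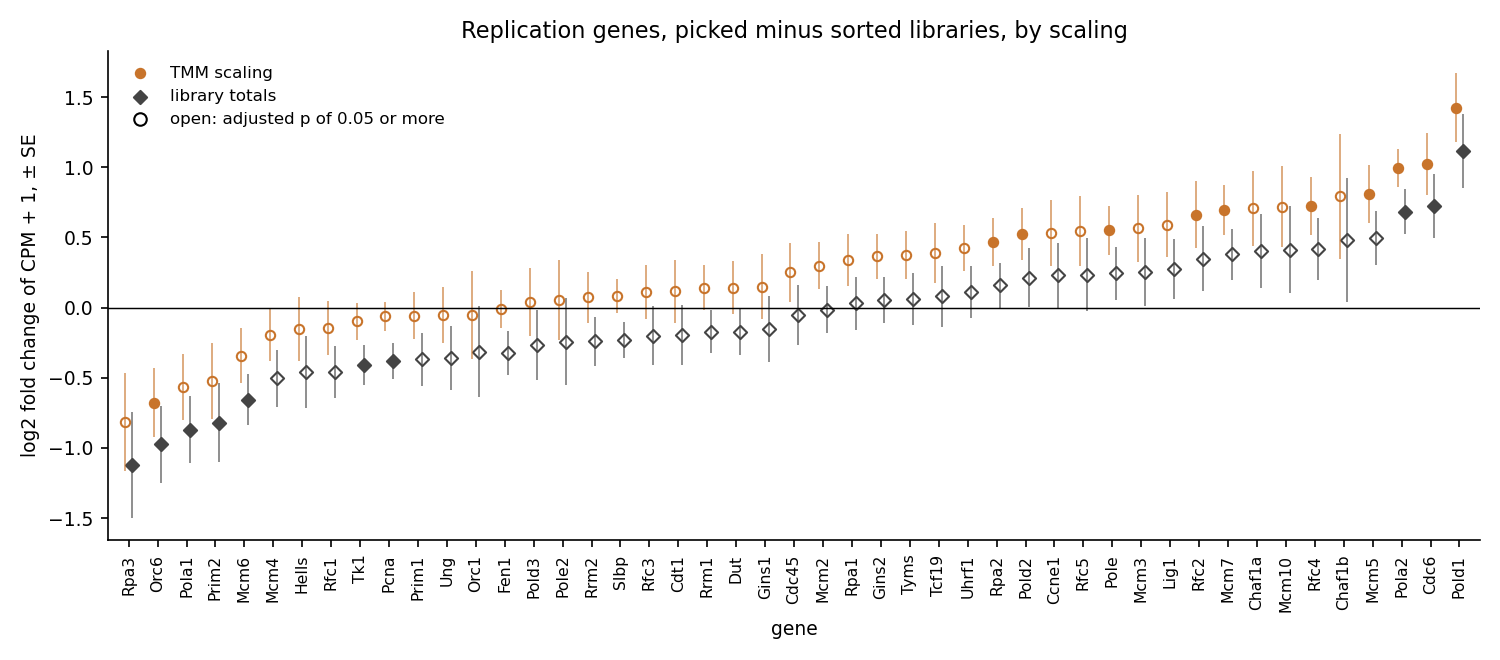
Log2 difference of each member between picked and sorted plates (limma, ± SE) with TMM factors and with library totals; open symbols have an adjusted p of 0.05 or more. Pold1, Pola2 and Cdc6 are the highest filled symbols under both scalings, and the members' median moves from 0.25 to -0.05.

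Pcna and Mcm6, the 2 most abundant members, were not called with TMM factors. Pcna had 417, 451, 413, 472 and 421 CPM in GK5a, 398 and 438 CPM in GK5b and 390.2, 445 and 391 CPM in picked plates. Mcm6 had 161, 185, 195, 198 and 186 CPM in GK5a, 144 and 189.6 CPM in GK5b and 188, 154 and 89.6 CPM in picked plates. The ranges of both genes overlapped between groups, and with library totals both were called lower in picked plates (Pcna -0.38, adjusted p 0.0276, and Mcm6 -0.66, adjusted p 0.0106). Mcm7, another abundant member and called higher with TMM factors, had 116, 114, 118, 141 and 133 CPM in GK5a, 83.02 and 119.6 CPM in GK5b and 209, 219 and 128 CPM in picked plates, where the lowest picked plate lay within the sorted range. The less abundant members Ccne1, Mcm2, Rrm2 and Uhrf1 were not called under either scaling. Ccne1 lay between 10.4 and 24.5 CPM in sorted and between 17.0 and 31.1 CPM in picked plates. In the same order Mcm2 lay between 38.7 and 79.9 and between 58.5 and 80.6 CPM. Rrm2 lay between 60.4 and 124 and between 71.7 and 96.7 CPM, and Uhrf1 between 36.5 and 53.3 and between 52.6 and 65.0 CPM. Ccne2 was at or under 1.22 CPM in sorted plates and at 3.22, 4.06 and 0 CPM in picked plates.

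Several other features moved with the picked plates. The 14 Paneth markers took 11.3, 4.396 and 1.10% of transcripts in them and 0.391 to 1.53% in sorted plates, and 11 of the 14 were higher. Of 8 stem markers 4 were lower and 0 higher. Xist was higher by 7.08 on the log2 scale (adjusted p 5.89e-08) and Ddx3y, a Y-linked gene, fell by 6.27 (adjusted p 6.72e-10), 2 markers of the sex of the mice. Handling, sex, the cells per well and the mix of cell types cannot be told apart in this contrast. With Lgr5-positive and unmarked wells alone 6 members were higher, where 15.6% of all genes were, and 2 lower, where 17.3% were, both under the background share. The module share there was 0.377% ± 0.0388 (SD, n = 3) in picked plates, 0.423% ± 0.0182 in GK5a and 0.434% ± 0.00272 in GK5b. Further replication genes gave 7 higher, such as Dctpp1 (1.45) and Pole3 (1.25), and 3 lower of 41 tested, G1/S control genes 1 higher (Ccnd3, 1.36) and 4 lower (Ccnd2, -1.20) of 22, and G2 and mitosis genes 1 higher (Bub1, 0.85) of 26.

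Between the 2 codes of sorted plates no member was called. In limma 0 of 47 were higher in GK5b, where 4.02% of all genes were, and 0 lower, where 3.73% were. At an unadjusted p below 0.05 1 member was higher and 4 lower, a count not made over all genes. The precision-weighted fit called 1 in each direction. The median was 0.03 over members and 0.01 over all genes. Cdt1 came nearest, at 86.0, 88.1, 102, 95.9 and 87.7 CPM in GK5a and 33.5 and 69.2 CPM in GK5b (-0.92, adjusted p 0.0501). Both GK5b plates lay under all GK5a plates, and the gene was called in 10 of 19 alternatives, with an adjusted p between 0.0128 and 0.82. Rfc1 (0.76, adjusted p 0.060) was the highest, and goblet markers took 6.13 and 3.83% of transcripts in GK5b and 1.051 to 1.81% in GK5a. Secretory wells were 75.8% of the wells in GK5b plate 1 (G), 46.4% in GK5b plate 2 (L) and 22.7 to 31.7% in GK5a. Lgr5-positive wells were 4.92% in GK5b plate 1 and 22.6% in GK5b plate 2, so these plates differed in their mix of wells. With Lgr5-positive and unmarked wells alone, a setting chosen after seeing the data, 0 members were called in either direction. Calls over all genes were then 22 higher and 8 lower of 9688, against 419 and 389 of 10427 with all wells. The part of the mix of wells in the values of Cdt1 and Rfc1 was not tested. Of the other lists 1 of 41 further replication genes was higher (Top2a, 0.79), 2 of 22 G1/S control genes (Ccnd3, 1.55, and Rbl2, 1.43) and 2 of 26 G2 and mitosis genes (Cenpe, 0.90, and Mki67, 0.84).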

How the data were processed

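Mouse crypt cells were sequenced by CEL-seq2 as 75 bp pairs, per the labels' protocols, and BWA 0.6.2-r126 and mm10 are named in the submitters' processing notes. The deposited values are other than raw counts: they equal -K × ln(1 - n/K) for K = 4096 barcodes and whole numbers n (100% within 0.001), a correction for barcode collisions, and are called transcripts here. Spike-ins were left out. Wells with at least 1000 transcripts were summed per plate, or per plate and class, into CPM. Genes were tested that had 15 transcripts in total and, in 3 or more sums, a level worth 10 transcripts in a library of median size. The test was limma 3.58.1 in R 4.3.3 on log2(CPM + 1) with TMM factors (0.756 to 1.11), class sums with plate as block, Benjamini-Hochberg threshold 0.05. The code was tested on simulated data. Wells were handled in Python 3.11.15 with pandas 2.3.3, numpy 2.4.6 and scipy 1.17.1.

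The members and lists were chosen with earlier results of these data known. All members were counted, called members named (the 10 largest where more passed), and plate values given for abundant members, called members of the plate contrasts and Ccne1, Ccne2, Cdc6, Mcm2, Pcna, Rrm2 and Uhrf1. Sequences shown were chosen after values were seen. Depth per plate is 821829 to 4832581 transcripts. Plates of 1 group differed beyond sampling noise (chi-square per gene 3.99 to 20.4 over 14 pairs), so each counts as 1 sample. Doublets were not called. Alternatives covered scaling, filter, pseudocount, weights, well depth, class thresholds and leaving out each plate.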

Additional observations from a re-analysis of the deposited data

Results flagged for a closer look

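In 4 of 29 sets of 5 GK5a plates examined 1 plate stood apart by Dixon's criterion, which chance meets in about 1 in 20 sets. Pold1 was at 17.2 CPM in GK5a plate 1 and at 34.2 to 37.1 CPM in the other 4 plates. Pold2 was at 56.1 CPM in the same plate and at 84.6 to 95.1 CPM in the others, and Rfc2 at 29.0 CPM against 58.4 to 66.0 CPM. All 3 low values fell on GK5a plate 1, which has the fewest wells (189) and transcripts (1022859) of the sorted plates. Slbp was at 105 CPM in GK5a plate 5 and at 122 to 127 CPM in the others.

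The class differences of 2 nucleotide supply genes differed between the codes in an interaction test (limma, adjusted over 8726 genes). Of 46 members 2 were called for secretory against absorptive wells, where 7.32% of all genes were, and 1 for Lgr5-positive against absorptive wells, where 5.84% were, so the members' shares were under the background. The secretory minus absorptive difference of Rrm2 was larger in GK5b by 4.31 on the log2 scale (adjusted p 0.00793). Rrm2 was at 25.6 ± 9.92 CPM in secretory and 8.19 ± 7.07 CPM in absorptive wells of GK5a (SD, n = 5), and at 87.4 ± 54.6 CPM in secretory wells of GK5b (SD, n = 2) with 0 in the absorptive wells of both plates, so the size depends on the pseudocount. For Tyms, thymidylate synthase, the secretory minus absorptive difference was larger in GK5b by 2.93 (adjusted p 0.0303) and the Lgr5-positive minus absorptive difference by 3.10 (adjusted p 0.0254). Tyms in absorptive wells was at 19.3 ± 9.05 CPM in GK5a and 5.00 ± 7.07 CPM in GK5b. The absorptive values of GK5b rest on 10 wells.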

How the results depend on the processing

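The class differences kept their direction in the alternatives run. All 10 named members of the Lgr5-positive against absorptive contrast were called in each of its 19 alternatives, 9 of 10 against secretory wells and 8 of 10 between secretory and absorptive wells. Rfc1 became a called lower member against secretory wells (1 in place of 0) with a pseudocount of 5, with precision weights and with marker thresholds lowered, and 0 to 1 when plates were left out, the 1 without GK5a plate 3. The picked contrast held for 3 of its 11 named members in all 22 alternatives. Its 10 higher and 1 lower became 3 and 7 with library totals (members' median -0.0535), 6 and 0 without the expression filter, 16 and 2 with mean CPM per well, 4 and 0 against GK5b alone, and 6 and 2 with Lgr5-positive and unmarked wells alone (chosen after seeing the data). Lower calls were 0 with median-of-ratios factors and with precision weights. Leaving out plates gave 5 to 11 higher and 0 to 2 lower: 5 higher without GK5b plate 2 or picked plate 2, 6 without GK5b plate 1. Between the codes the lower count was 1 with library totals, median-of-ratios factors, a pseudocount of 5, deeper wells, whole barcodes and precision weights (which also gave 1 higher), and 0 to 1 in each direction without single plates. Calls over all genes there were 12 higher and 25 lower without GK5b plate 1. No paired analysis was possible because the groups' plate numbers do not pair plates.

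Without ribosomal protein genes, Rn45s and marker genes in the denominator the module share was 0.403% in GK5a, 0.388% in GK5b, 0.436% in picked plates, 0.567% in Lgr5-positive, 0.214% in secretory and 0.491% in unmarked wells, and the class differences were 0.353, 0.508 and 0.155 points (Lgr5-positive minus secretory and minus absorptive, secretory minus absorptive). As a mean over wells it was 0.301% in GK5a and 0.259% in GK5b, and thinned 0.271% in GK5b and 0.0638% in absorptive wells. Without Pcna it was 0.282, 0.265 and 0.265% in GK5a, GK5b and picked plates, 0.395, 0.0369 and 0.351% in Lgr5-positive, absorptive and unmarked wells, and 0.358 points between Lgr5-positive and absorptive wells. With lowered thresholds absorptive wells had 0.0914% and unmarked wells 0.436%, and with doubled thresholds secretory wells had 0.114% and secretory minus absorptive 0.0701 points. Picked minus sorted plates was -0.018 points and turned positive with the other denominator (0.0404), as a mean over wells (0.0322) and thinned (0.0160). The causes were not tested. Depth limits Ccne2, which was too low to test, and Orc1, which was too low in the class sums.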

Other observations

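Only 3 wells of the series had a module share above that of the highest sorted well, and all 3 were unmarked wells of picked plate 1. The highest had 2.93%, from 33 module transcripts of 21 members in 1127 transcripts. The next had 1.85%, from 20 transcripts of 13 members in 1080. The 3rd was deeper, at 1.76% from 141 transcripts of 38 members in 8042, with 14 transcripts each of Pcna and Mcm7. They were chosen after their values were seen.

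Thinned Lgr5-positive and unmarked sorted wells were also ordered by their Lgr5 transcripts. Wells with 0 held 8.76 ± 0.480 module transcripts of 2000 (SD over 7 plates, 638 wells), those with 1 held 8.19 ± 1.41 (6 plates, 103 wells) and those with 2 or more held 7.09 ± 1.87 (6 plates, 65 wells). The ranges over plates overlapped.

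Paneth wells had a module share of 0.0718% ± 0.0159 in sorted plates (SD, n = 7) and of 0.128% ± 0.0200 in picked plates (SD, n = 3). Enteroendocrine wells had 0.119% ± 0.0928 and tuft wells 0.141% ± 0.0956 in sorted plates. The Paneth value of GK5a plate 3 and the Paneth and enteroendocrine values of GK5b plate 1 rest on 1 well each. Goblet wells with a marker share of 2 to 5% had 0.408% of transcripts in the 26 G2 and mitosis genes, those with 5 to 10% had 0.169% and those with 10 to 20% had 0.0345%.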
